A study of Homo sapiens with 8 samples.

Results

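The 6 genes described here carry iron into the cell, store it, release it from storage and sense it. They are the transferrin receptor gene TFRC, the ferritin heavy and light chain genes FTH1 and FTL, the ferritin cargo receptor gene NCOA4, and IREB2 and ACO1, which encode the iron regulatory proteins. They were taken by gene name from a table of 9543 protein-coding genes. HMOX1 was asked for as well but is not among those genes, and all 6 others passed the filter on low values. The cells were HL60, a line from a human acute myeloid leukaemia, kept in medium with fetal bovine serum and treated for 72 h. The 4 groups were VC with DZNep, DZNep alone, VC alone and phosphate-buffered saline (PBS), with 2 libraries each, and no other agent was common to them. VC is vitamin C, and DZNep is 3-deazaneplanocin A, which inhibits S-adenosylhomocysteine hydrolase and lowers the histone methyltransferase EZH2. Nothing in the labels tells whether replicates are separate cultures, so how far the 2 libraries of a group lie apart may be technical. The p values rest on these distances in all 4 groups and on a variance trend over all genes. They may thus say nothing on variation between cultures. HL60 is a single cell line, and doses are not given in the labels.

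Transferrin carries iron in blood and enters cells with its receptor, and iron that is not used at once is stored inside shells of ferritin heavy and light chains. NCOA4 binds the heavy chain and takes ferritin to the lysosome, where the iron is released. When iron is short, the iron regulatory proteins bind stem-loops in mRNAs called iron-responsive elements: at the 5′ end of ferritin mRNAs they block translation, and in the 3′ untranslated region (UTR) of TFRC mRNA they slow its decay. Leukaemic blasts are known for abundant transferrin receptor. RNA levels say nothing on how much ferritin protein was made, since that control acts on translation.

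The stem-loops tie 3 of the 6 genes to the iron regulatory proteins, and they are shown because TFRC, FTH1 and FTL are the genes whose RNA levels are compared most closely. The motif searched on the sense strand was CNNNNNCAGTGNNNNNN, with the 5 bases after the first C required to pair with the last 5 (G with T allowed), in the UTRs of 1 GENCODE 29 transcript per gene on GRCh38. In each line below, capitals mark the 6 bases of the loop and the seventh base is the unpaired C.

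FTH1, 5′ UTR, chr11:61967573-61967602, minus strand: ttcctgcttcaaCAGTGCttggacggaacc
FTL, 5′ UTR, chr19:48965335-48965364, plus strand: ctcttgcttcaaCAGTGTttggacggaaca
TFRC, 3′ UTR, chr3:196050978-196051007, minus strand: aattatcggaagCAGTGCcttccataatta
TFRC, 3′ UTR, chr3:196050574-196050603, minus strand: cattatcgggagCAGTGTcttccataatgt
TFRC, 3′ UTR, chr3:196050509-196050538, minus strand: ctgtatcggagaCAGTGAtctccatatgtt
TFRC, 3′ UTR, chr3:196050462-196050491, minus strand: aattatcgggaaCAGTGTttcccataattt

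The motif was found in the 5′ UTR of 9 of 9379 genes of the table (0.096%) and in the 3′ UTR of 70 of 9448 genes (0.741%). TFRC, with 4 matches, was the 1 gene with that many, and 4 genes had at least 2 in the 3′ UTR. NCOA4, IREB2 and ACO1 had 0 matches in either UTR, which says only that these letters are not there. A match is a description of sequence and was not tested as a working element.

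All values below are normalized units, which the authors mapped onto 1 common distribution in every library. Each library totals 1988507 units, with a median gene at 88 and the highest at 10345, so read depth is unknown and a shift common to most genes would not be seen. Levels of different genes cannot be compared as amounts of RNA on this scale. Of 10 promyelocyte marker genes 7 are in the table, and their summed level was 5645 to 5720 units with VC and DZNep, 5606 to 5674 with DZNep, 4868 to 5468 with VC and 4474 to 5387 with PBS. Among these 7, in the limma fit with an adjusted p threshold of 0.05, 2 were called higher and 1 lower with the combination against PBS, where 9.52% of all genes were higher and 10.2% lower. With DZNep against PBS 1 was higher and 1 lower, where 6.42% and 6.63% of all genes were, and with VC against PBS 0 were called. Of 12 erythroid markers, a cell type that takes up much iron, EPOR alone is in the table, at 13 to 28 units over all libraries. Of 9 macrophage markers 0 are in the table. The 2 lymphoid markers present summed to 38 to 48 units with VC and DZNep, 28 to 36 with DZNep, 16 to 19 with VC and 14 to 15 with PBS, and in the same comparison with PBS 1 of the 2 was called higher with the combination, beside the 9.52% of all genes. The part of these markers in the results below was not tested.

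**Figure D1:**
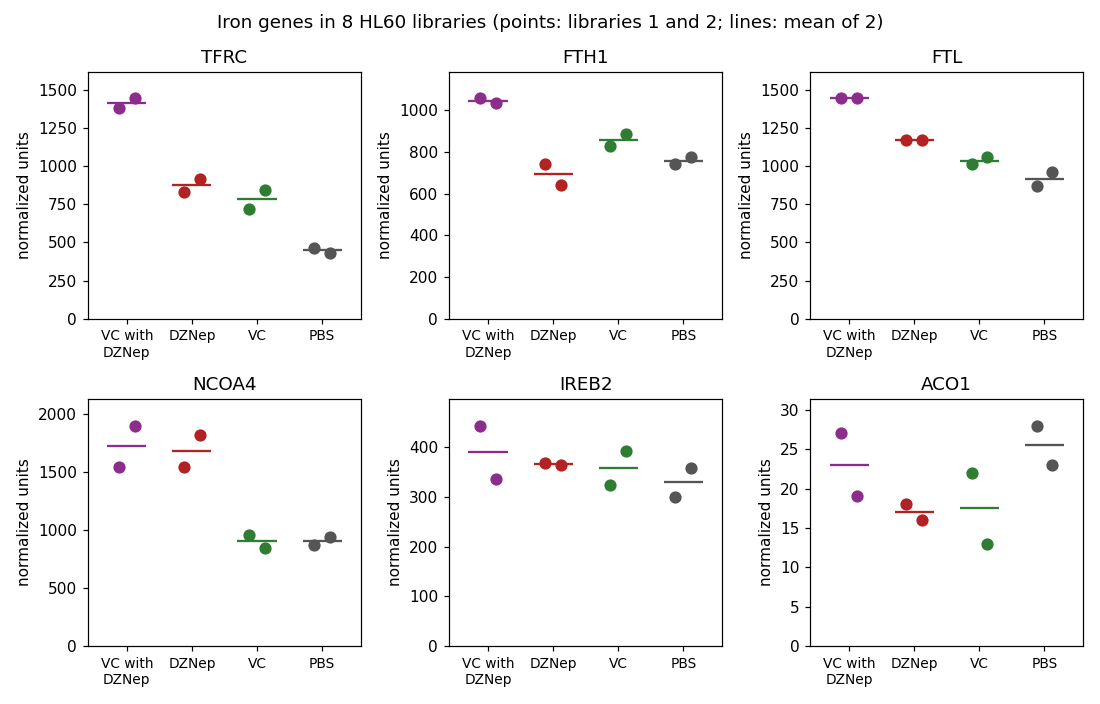
Normalized units (linear axes from 0) of the 6 iron genes in VC with DZNep, DZNep, VC and PBS, with a point for each of 2 libraries and a line at their mean. TFRC lies at 1377 and 1443 with the combination, above both single drugs, and at 463 and 432 with PBS, while NCOA4 is high in the 4 libraries that had DZNep.

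TFRC (ENSG00000072274, chr3:196027183-196082189, minus strand) had 1377 and 1443 units with VC and DZNep, 828 and 918 with DZNep, 718 and 844 with VC, and 463 and 432 with PBS. The combination libraries were above all others, the PBS libraries below all others, and the 2 single-drug groups overlapped. Groups of 2 libraries often separate, here and below. With the combination against PBS 29.3% of all genes were higher in both libraries and 27.1% lower, and with DZNep against PBS 26.8% and 25.4%. The combination gave 29.9% and 28% against VC and 20.6% and 20.4% against DZNep, and VC gave 15.8% and 15.2% against PBS. Shares over all 4 groups together were not counted. In bulk RNA of this kind, a shift in the share of cells with much TFRC and a shift in the RNA per cell cannot be told apart, here and below. Among the 955 genes of its decile by genomic span, TFRC ranked 16th and 15th from the top with the combination, 35th and 30th with DZNep, 43rd and 34th with VC, and 73rd and 81st with PBS.

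Set against PBS, TFRC was 3.15-fold higher with the combination, at 1410 ± 46.7 against 448 ± 21.9 units (SD, n = 2). Its log2 fold change was 1.65 ± 0.0996 (SE; limma adjusted p = 4.74e-06). With DZNep alone it rose 1.95-fold over PBS, to 873 ± 63.6 units (log2 fold change 0.96 ± 0.0996, limma adjusted p = 0.000381). Both calls held in 17 of 17 alternatives. With VC alone it was at 781 ± 89.1 units, a log2 fold change of 0.80 with a 95% interval of 0.58 to 1.02, and did not pass (limma adjusted p = 0.0839). No gene passed in that comparison (0 of 9513, 462 with an unadjusted p under 0.05), and TFRC had the smallest p. It passed in 1 of 17 alternatives, median-of-ratios scaling (0.0484), over a range from 0.0484 to 0.877.

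VC added to DZNep gave TFRC a 1.62-fold rise over DZNep alone (log2 fold change 0.69 ± 0.0996, limma adjusted p = 0.0149, both libraries higher, as for 20.6% of all genes). This call was lost without DZNep replicate 1 (0.188) or 2 (0.0761), without VC_DZNep replicate 1 (0.0723) or 2 (0.129), without an intensity trend (0.188) and in a fit of these groups' 4 libraries (0.0831). Over its 17 alternatives the adjusted p ran from 0.00853 to 0.188. DZNep added to VC gave 1.81 times the level with VC alone (0.86 ± 0.0996, limma adjusted p = 0.000452), a call kept in all 17 alternatives.

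When the VC effect was averaged over the presence of DZNep, so that 4 libraries with VC were set against 4 without, TFRC was 1.68-fold higher (log2 fold change 0.75 ± 0.0705, limma adjusted p = 0.00417) and had the smallest p of all genes. The 4 libraries with VC did not all exceed the 4 without, because the DZNep libraries at 828 and 918 lie above the library with VC alone at 718. That call was lost without DZNep replicate 1 (0.0602) or 2 (0.0546) and without the intensity trend (0.111), over alternatives from 0.000879 to 0.111. The single effects of DZNep and VC summed to 1.76 on the log2 scale, beside 1.65 for the combination. The interaction, which is that difference, was -0.11 with a 95% interval of -0.42 to 0.21 (limma adjusted p = 0.894), so TFRC could depart from the sum by those amounts.

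FTH1 (ENSG00000167996, chr11:61959718-61967660, minus strand), whose product oxidizes the iron that enters ferritin, had 1056 and 1032 units with VC and DZNep, 742 and 643 with DZNep, 829 and 884 with VC, and 742 and 773 with PBS. The combination libraries were above the other 6. The DZNep libraries did not exceed those with PBS.

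The rise of FTH1 was seen where VC was added to DZNep: 1044 ± 16.97 units against 693 ± 70.0 with DZNep alone, 1.51-fold (log2 fold change 0.60 ± 0.0906, limma adjusted p = 0.0194). Against PBS, at 758 ± 21.9 units, the combination was 1.38-fold higher (0.46 ± 0.0906, limma adjusted p = 0.00613), a call kept in 17 of 17 alternatives. DZNep alone gave -0.13 (95% interval -0.33 to 0.07, limma adjusted p = 0.372) and VC alone 0.18 (-0.02 to 0.38, limma adjusted p = 0.954). DZNep added to VC gave 0.29 (limma adjusted p = 0.0587), which passed without DZNep replicate 1 (0.0447) or 2 (0.0443) and in a fit of these groups' 4 libraries (0.0443).

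The FTH1 interaction was 0.42 on the log2 scale (95% interval 0.13 to 0.70, unadjusted p = 0.00800 in the limma fit) and did not pass over all genes (limma adjusted p = 0.547, and 0.407 to 0.929 over 16 alternatives). Averaged over DZNep, VC gave FTH1 a log2 change of 0.39 ± 0.0641 (limma adjusted p = 0.0416), a call lost in 10 of 16 alternatives, among them the removal of any of the 8 libraries (0.0658 to 0.26). The call on VC added to DZNep was lost without either DZNep library (0.0923 and 0.134) or either combination library (0.0965 and 0.105), without an intensity trend (0.188) and in a fit of these groups' 4 libraries (0.14).

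FTH1 shares 1267 exonic bases with BEST1, a bestrophin channel gene on the opposite strand, and whether counting used strand is not given in the sources used here. BEST1 had 978 and 828 units with VC and DZNep, 442 and 392 with DZNep, 538 and 488 with VC, and 370 and 377 with PBS, so it too was highest with the combination. Reads of the 2 genes cannot be told apart without strand, and the part of BEST1 in the FTH1 values was not tested. GENCODE also lists 25 pseudogenes named after FTH1, 16 after FTL and 3 after NCOA4, and how reads that match several copies were counted is not given, so these levels are uncertain to that extent.

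FTL (ENSG00000087086, chr19:48965301-48966878, plus strand), the ferritin chain that helps to build the iron core, had 1444 units in both combination libraries, 1172 in both DZNep libraries, 1014 and 1057 with VC, and 872 and 960 with PBS. No 2 of the 4 groups overlapped, and the order was combination, DZNep, VC and PBS. Against PBS, 29.3% of all genes were higher in both libraries with the combination, 26.8% with DZNep and 15.8% with VC. FTL was 16th in its decile by span in both combination libraries, where the neighbouring values of that decile are 1377 and 1548. In both DZNep libraries it was 21st, between 1122 and 1216. All 8 libraries hold the same sorted values, so equal values here mean equal ranks and not equal amounts of RNA. Why the ranks are equal was not tested.

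With the combination FTL rose 1.58-fold over PBS (log2 fold change 0.66 ± 0.0785, limma adjusted p = 0.000354) and 1.39-fold over VC alone (0.48 ± 0.0785, limma adjusted p = 0.00291), and both calls held in 17 of 17 alternatives. The equal values, with an SD of 0 in the combination and DZNep groups, enter the SE of FTL in every comparison. DZNep alone raised it 1.28-fold over PBS (0.36 ± 0.0785, limma adjusted p = 0.0157). This was lost without PBS replicate 1 (0.0665), without DZNep replicate 1 (0.0661) or 2 (0.0714), without an intensity trend (0.0918) and in a fit of these groups' 4 libraries (0.0607). VC added to DZNep gave 0.30 (95% interval 0.13 to 0.47, limma adjusted p = 0.124) and VC alone 0.18 (0.00 to 0.35, limma adjusted p = 0.954), and neither passed. The 2 ferritin genes thus had intervals that did not overlap with DZNep alone, 0.18 to 0.53 for FTL and -0.33 to 0.07 for FTH1, a difference between genes that was not tested.

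NCOA4 (ENSG00000266412, chr10:46005088-46030714, minus strand) had 1548 and 1904 units with VC and DZNep, 1548 and 1826 with DZNep, 962 and 845 with VC, and 872 and 944 with PBS. All 4 libraries with DZNep were above all 4 without, and within each of these sets the groups overlapped. The share of all genes that separate 4 libraries from 4 in this way was not counted. At this height 1 rank is a wide step: within the decile of NCOA4 by span, the value 1548 has neighbours at 1444 and 1750.

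NCOA4 rose 1.85-fold with DZNep alone (log2 fold change 0.89 ± 0.119, limma adjusted p = 0.00146), 1.89-fold with the combination against PBS (0.92 ± 0.119, limma adjusted p = 0.000579) and 1.90-fold with the combination against VC (0.93 ± 0.119, limma adjusted p = 0.000751). Each of the 3 calls held in 17 of 17 alternatives. VC gave -0.01 against PBS (95% interval -0.27 to 0.25, limma adjusted p = 0.998) and 0.03 when added to DZNep (-0.23 to 0.29, limma adjusted p = 0.947). The interaction was 0.04 (-0.33 to 0.41).

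**Figure D2:**
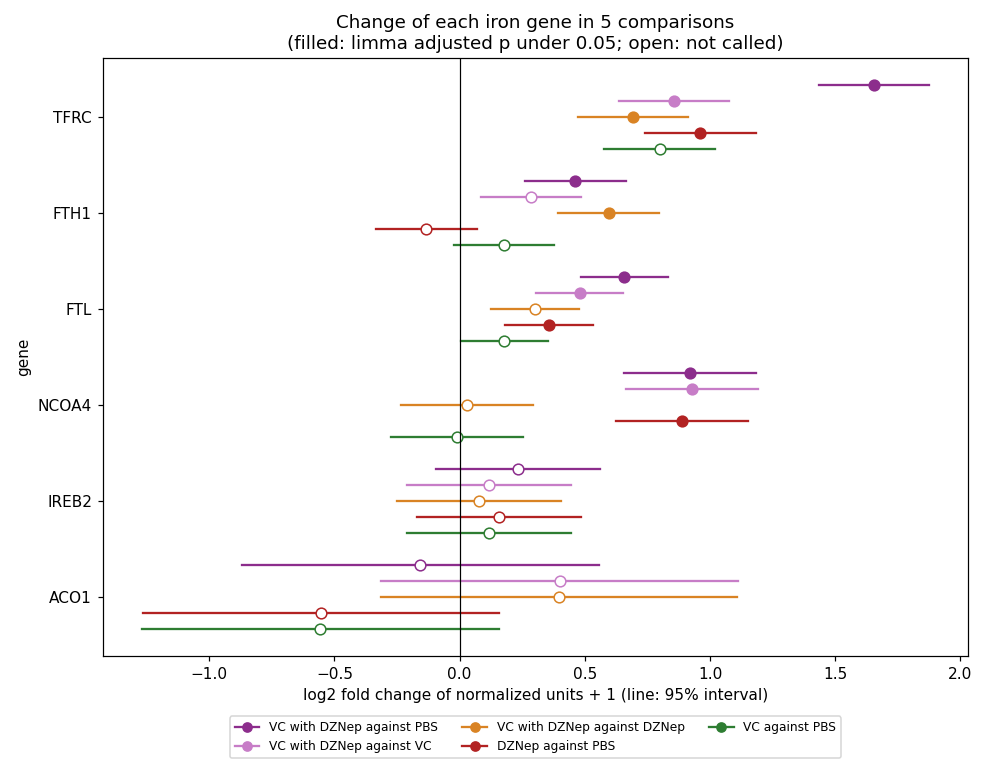
Log2 fold change of normalized units + 1 for the 6 iron genes in 5 comparisons, with 95% intervals from the limma fit; filled points passed an adjusted p of 0.05 and open points did not. The TFRC intervals lie to the right of 0 in all 5, NCOA4 has filled points in the 3 that contrast DZNep with its absence, and IREB2 and ACO1 have no filled point.

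The iron regulatory protein genes were not called in any of the 8 comparisons. IREB2 (ENSG00000136381, chr15:78437431-78501456, plus strand) encodes IRP2, which is broken down when iron is plentiful. It had 444 and 336 units with VC and DZNep, 368 and 364 with DZNep, 324 and 392 with VC, and 301 and 358 with PBS. The PBS range overlapped those of VC and of the combination, and both DZNep libraries lay above it. Its log2 fold changes were 0.23 with the combination (95% interval -0.09 to 0.56, limma adjusted p = 0.297), 0.16 with DZNep (-0.17 to 0.48) and 0.12 with VC (-0.21 to 0.45), each against PBS.

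ACO1 (ENSG00000122729, chr9:32384603-32454769, plus strand) encodes IRP1, which serves as a cytosolic aconitase when it carries an iron-sulphur cluster. It was near the low end of the table, at 27 and 19 units with VC and DZNep, 18 and 16 with DZNep, 22 and 13 with VC, and 28 and 23 with PBS. The DZNep and VC libraries lay below both PBS libraries, and the combination spanned the range between. Against PBS its log2 fold changes were -0.16 with the combination (95% interval -0.87 to 0.56), -0.55 with DZNep (-1.27 to 0.16, limma adjusted p = 0.291) and -0.56 with VC (-1.27 to 0.16, limma adjusted p = 0.954). These intervals leave room for changes in either direction.

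Counted together, 4 of the 6 genes rose with the combination against PBS, where 9.52% of all 9513 genes rose and 10.2% fell (19.7% in either direction). With DZNep alone 3 rose, where 6.42% of all genes rose and 6.63% fell (13.1%), and with the combination against VC also 3, where 6.89% rose and 8.14% fell (15%). For VC added to DZNep 2 of 6 rose (TFRC and FTH1), where 0.263% of all genes rose and 0.673% were called in either direction. For the VC effect averaged over DZNep, 2 rose where 0.137% of all genes did, and for the DZNep effect averaged over VC 3 rose where 13.9% did. For VC alone and for the interaction 0 of 6 were called, where 0% and 0.021% of all genes were. None of the 6 fell in any comparison. The comparisons share libraries, so these counts are not separate pieces of evidence, and the 6 genes were chosen with earlier results of these data known.

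Outside the 6, other genes of iron handling were read from 6 lists, with 76 genes tested. In the combination against PBS 5 rose and 8 fell, 17.1% of them beside 19.7% of all genes, with a median log2 fold change of -0.05 beside 0.01 over all genes. DZNep alone gave 3 higher and 4 lower (9.21% beside 13.1%), and the combination against VC 3 and 4 (9.21% beside 15%). VC alone, VC added to DZNep and the interaction called 0 of the 76, beside 0, 64 and 2 of all genes.

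In the list for iron uptake and the transferrin cycle, with 13 genes tested, 1 rose and 2 fell with the combination against PBS (median -0.08). Of all genes 9.52% rose and 10.2% fell there. MCOLN1, which encodes the lysosomal channel mucolipin-1 that lets iron out of the lysosome, rose to 51.5 ± 6.36 units against 32 ± 0 (log2 fold change 0.66, limma adjusted p = 0.0321, called in 9 of 16 alternatives). PICALM, a clathrin adaptor gene of transferrin receptor endocytosis, fell to 195 ± 4.24 units against 269.5 ± 14.8 (-0.46, limma adjusted p = 0.0216, called in 12 of 17). SLC11A2, the gene of the transporter DMT1 that moves iron out of the endosome, fell to 104 and 96 units against 138 and 142 (-0.48, limma adjusted p = 0.0440, called in 9 of 17). When the DZNep effect was averaged over VC, all 3 were called with limma adjusted p of 0.00434, 0.00612 and 0.00503, and in every alternative run. They were the only calls among the 13, 1 higher and 2 lower, beside 13.9% and 14.1% of all genes (28% in either direction). Against PBS, the combination calls were lost without either combination library for all 3 genes, without either PBS library for MCOLN1 and SLC11A2 and PBS replicate 1 for PICALM, without either VC library for MCOLN1 and without either DZNep library for SLC11A2. With DZNep alone MCOLN1 (0.71, limma adjusted p = 0.0329) rose and PICALM (-0.42, limma adjusted p = 0.0434) fell, the counts being 1 and 1 of 13, beside 6.42% and 6.63% of all genes. The MCOLN1 call was lost without any 1 of the PBS, DZNep or VC libraries and the PICALM call without any 1 of the 8. STEAP3, the endosomal ferrireductase gene, was at 72 ± 2.83 units with the combination and 70 ± 19.8 with PBS.

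The storage and export list had 3 genes tested, and the 1 that fell was PCBP2, which encodes an RNA-binding protein that also brings iron to ferritin. PCBP2 had 1750 and 1280 units with VC and DZNep, 1826 and 1548 with DZNep, 2726 and 2460 with VC, and 3114 in both PBS libraries. All 4 libraries with DZNep were below all 4 without, a separation whose share over all genes was not counted. Its log2 fold change was -1.06 ± 0.133 with the combination (limma adjusted p = 0.000515) and -0.89 ± 0.133 with DZNep (limma adjusted p = 0.00255), each against PBS, and -0.79 ± 0.133 for the combination against VC (limma adjusted p = 0.00342). These calls held in 17 of 17 alternatives each. The equal PBS values, with an SD of 0, enter the SE of PCBP2. PCBP1, the gene of the related chaperone, was at 401 ± 12.7 units with the combination, 419 ± 12.02 with DZNep, 410 ± 4.95 with VC and 413 ± 0 with PBS, and was not called.

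Among 13 genes that control the iron regulatory proteins or iron mRNAs, 2 rose and 0 fell with the combination against PBS (median 0.10). Of all genes 9.52% rose and 10.2% fell there. RC3H1, the gene of roquin-1, which with the nuclease ZC3H12A destabilizes mRNAs through stem-loops, had 89 and 102 units with VC and DZNep, 66 and 72 with DZNep, 64 and 60 with VC, and 54 and 52 with PBS. Its log2 fold change was 0.83 ± 0.152 against PBS (limma adjusted p = 0.00408, called in 17 of 17 alternatives). RC3H2, also on this list, had 184 and 152, 138 and 161, 212 and 188, and 210 and 186 units in the same order. With the combination against PBS RC3H2 was not called (-0.24, limma adjusted p = 0.260). For the DZNep effect averaged over VC, RC3H2 was called lower (-0.33, limma adjusted p = 0.0303) and RC3H1 higher (0.49, limma adjusted p = 0.00688). Of the 13, 2 rose and 1 fell there, beside 13.9% and 14.1% of all genes. KEAP1, the gene of the NRF2 inhibitor, rose by 0.43 (limma adjusted p = 0.0333, called in 9 of 17), a call lost without any 1 of the PBS, VC or combination libraries. ZC3H12A, named after its values were seen, had 66 and 48 units with VC and DZNep, 39 and 32 with DZNep, 30 and 43 with VC, and 24 and 38 with PBS, and was not called (0.88, limma adjusted p = 0.0507). FBXL5, whose product marks IRP2 for breakdown when iron is present, was at 116 ± 8.49 units with the combination, 98.5 ± 13.4 with DZNep, 117 ± 4.24 with VC and 125 ± 4.24 with PBS, and was not called. DZNep alone called 0 of the 13, beside 13.1% of all genes.

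Of 28 iron-sulphur cluster genes 2 rose and 1 fell with the combination against PBS, and 2 rose and 2 fell with DZNep (medians -0.09 and 0.00). Of all genes 9.52% rose and 10.2% fell with the combination, and 6.42% and 6.63% with DZNep. ISCA1, the gene of a cluster assembly protein, rose by 0.86 with DZNep (limma adjusted p = 0.0435, called in 9 of 17). HSPA9, the mitochondrial chaperone gene, fell by 0.28 with DZNep (limma adjusted p = 0.0486, called in 5 of 17). MMS19, of the cytosolic assembly complex, fell by 0.35 with the combination (limma adjusted p = 0.0405, called in 7 of 17). The ISCA1 call was lost without any 1 of the PBS, DZNep or combination libraries, and those of HSPA9 and MMS19 without any 1 of the 8. Outside the naming rule for low levels, and named after their values were seen, FDXR was at 35 and 34 units with the combination and 18 and 10 with PBS, NFS1 at 43 and 43 with the combination and 24 and 29 with PBS, and NUBP1 at 8 and 10 with DZNep and 20 and 22 with PBS.

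Of 15 genes of haem synthesis and mitochondrial iron import 0 rose and 3 fell with the combination against PBS (median -0.21). Of all genes 9.52% rose and 10.2% fell there (19.7% in either direction). With DZNep alone 0 of the 15 were called, where 13.1% of all genes were. ABCB10, a mitochondrial transporter gene, was at 102 and 103 units with VC and DZNep, 166 and 144 with DZNep, 130 and 140 with VC, and 154 and 155 with PBS (-0.59 ± 0.122, limma adjusted p = 0.00843, called in 17 of 17). SLC25A37, the mitoferrin-1 gene, fell to 364.5 ± 27.6 units against 535 ± 41.0 (-0.55, limma adjusted p = 0.00976, called in 15 of 17), and TMEM14C fell by 0.40 (limma adjusted p = 0.0488, called in 6 of 17). ALAS1, the first enzyme of the pathway, rose for the combination against VC (0.39, limma adjusted p = 0.0453, called in 9 of 17). The SLC25A37 call was lost without PBS replicate 2 or VC_DZNep replicate 2 (up to 0.0822), the TMEM14C call without any 1 of the 8 libraries, and the ALAS1 call without any 1 of the DZNep, VC or combination libraries. Of 4 genes of haem breakdown and transport 1 fell with the combination against PBS, where 10.2% of all genes did. It was the biliverdin reductase gene BLVRB, named after its value was seen, at 18 and 14 units with VC and DZNep and 33 and 41 with PBS.

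**Figure D3:**
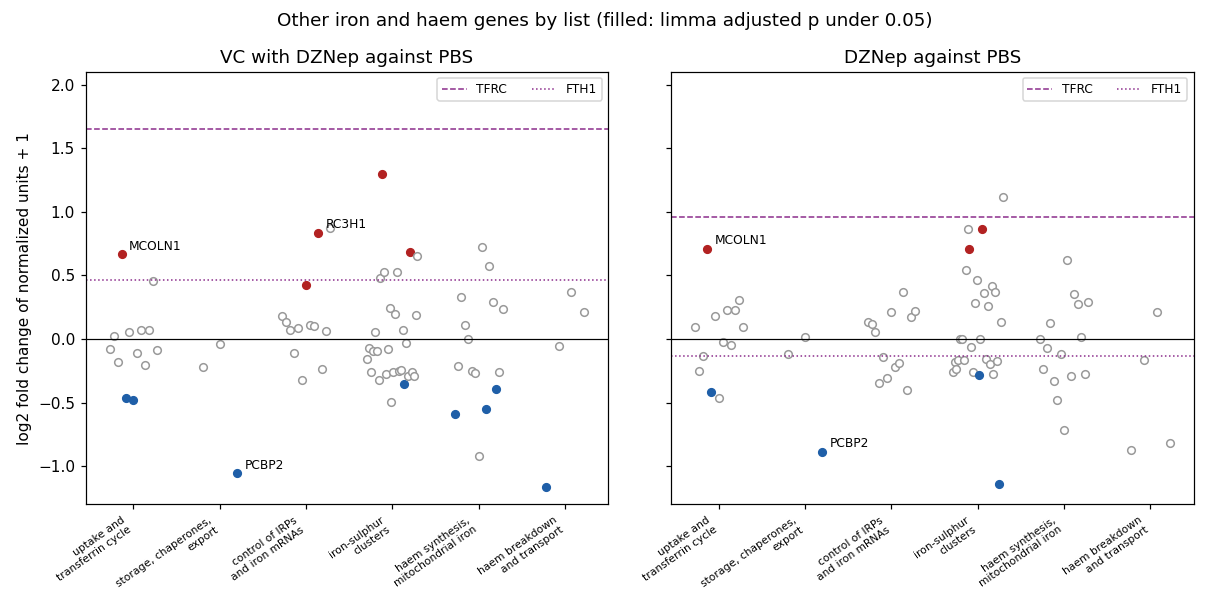
Log2 fold change of normalized units + 1 for 76 other iron and haem genes in 6 lists, for VC with DZNep against PBS (left) and DZNep against PBS (right); filled red points rose, filled blue points fell and open points were not called. Dashed and dotted lines mark TFRC and FTH1; with the combination all 76 genes lie below the TFRC line at 1.65, and PCBP2 is at -1.06.

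Over the 8 libraries TFRC was most like LAMP1, the lysosomal membrane glycoprotein gene (Pearson r = 0.98 on log2 values), among 6619 other genes with a mean of at least 50 units. LAMP1 had 499 and 489 units with VC and DZNep, 361 and 351 with DZNep, 333 and 338 with VC, and 272 and 268 with PBS. Next came CLK1, CHI3L1, KNOP1 and DNAJC8 (r from 0.96 to 0.97), and the most opposite were TRIM56 (-0.98), ADCY9, TCFL5, TSPOAP1 and ECI1 (-0.97 to -0.95). FTL was most like C6orf62, MNDA, KIAA1551 and SCAF11 (0.98 to 0.99) and most opposite to DGKH, TSPOAP1, WDR90, LAT2 and DNM1 (-0.99 to -0.98). FTH1 was most like AP1B1, NSMAF, SMNDC1, TNFAIP3 and ACER3 (0.94 to 0.97) and most opposite to ZNF195 (-0.99), SELENOI, CFAP44 and PARD3 (-0.92 to -0.90). Within the 6, r was 0.95 for TFRC and FTL, 0.84 for FTL and NCOA4, 0.75 for TFRC and NCOA4, 0.63 for TFRC and FTH1 and 0.14 for FTH1 and NCOA4. These correlations describe 8 libraries in 4 groups that share their scaling, and high values are found when 6619 genes are searched.

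**Figure D4:**
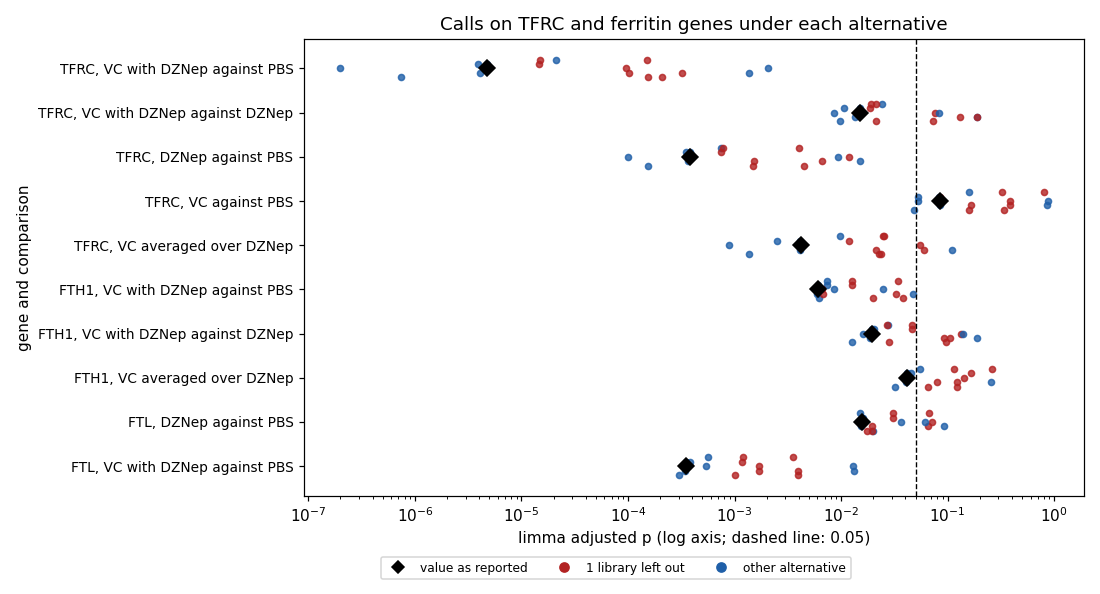
Limma adjusted p (log axis, dashed line at 0.05) for 10 results on TFRC, FTH1 and FTL, as reported (black) and under each alternative, with red for 1 library left out and blue for the rest. TFRC with the combination or DZNep against PBS stays left of the line throughout, and the results that rest on adding VC, and FTL with DZNep, have points on both sides.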

How the data were processed

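RNA of 8 HL60 libraries, 2 for each of 4 treatments, was prepared with an Illumina TruSeq kit, per the labels' protocols. Per the submitters' processing notes, the tools were DESeq 1.18.1, HTSeq 0.6.0, HISAT2 2.0.4 and SAMtools 1.3.1 and the builds GRCh38 and hg38; the deposited table's name adds EDASeq. Its deposited values are a score: normalized whole numbers with the same sorted values in all 8 libraries, and not read counts. Drug-free columns are headed control and were taken as PBS. All 9543 identifiers matched GENCODE 29.

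Genes with a mean under 10 units were dropped (30), leaving 9513. With limma 3.58.1 in R 4.3.3, log2(value + 1) was fitted with 1 mean per group over all libraries, an intensity trend (6.46 prior and 4 residual degrees of freedom), two-sided tests and Benjamini-Hochberg adjustment over all genes in each of 8 comparisons; the threshold was 0.05. Fold changes are on that scale. The fit was run on simulated data with planted changes and normal noise, which checks the method and not the calls made here. List genes were named if called and averaging 50 or more units in the higher group, up to 4 per list and comparison by p. Likeness took 5 genes in each direction. A few genes that these rules select are not reported here. Members and lists were chosen with earlier results of these data known. Alternatives covered pseudocount, filter, scaling, ranks, prior variance, libraries used and a replicate block. Ranks were used for counts of called genes only, so the alternatives given for single genes and their fold changes leave them out.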

Additional observations from a re-analysis of the deposited data

How the results depend on the processing

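None of the 17 called changes of the 6 genes reversed in any alternative run; of 790 recomputed fold changes 729 kept direction and side of the threshold, 30 lost a call, 4 gained one and 27, none of them called, changed sign. With 1 library left out at a time, the uncalled results that changed sign ranged, on the log2 scale, for VC against PBS from -0.102 to 0.0844 (NCOA4) and -0.0188 to 0.255 (IREB2), for the combination against PBS from -0.40 to 0.0859 (ACO1), and against DZNep from -0.12 to 0.18 (NCOA4) and -0.12 to 0.28 (IREB2). For the combination against VC the range was -0.0847 to 0.316 (IREB2), for the interaction -0.11 to 0.19 (NCOA4), -0.24 to 0.16 (IREB2) and -0.222 to 0.0108 (TFRC), for VC averaged over DZNep -0.0641 to 0.0852 (NCOA4), -0.0024 to 0.20 (IREB2) and -0.26 to 0.10 (ACO1), and for DZNep averaged over VC -0.26 to 0.10 (ACO1). A group left with 1 library is assumed to vary like the others. The cause was not tested. Counts over all genes under these removals were 439 to 1030 for DZNep against PBS, 0 to 1 for VC against PBS, 869 to 1633 for the combination against PBS, 4 to 70 against DZNep and 501 to 1532 against VC, 0 to 2 for the interaction and 0 to 32 for VC averaged over DZNep; counts among the 6 genes were 0 to 2 for the combination against DZNep and 0 to 1 for VC averaged over DZNep. Without the intensity trend the counts were 739 for DZNep against PBS, 2 for the combination against DZNep (0 of the 6), 928 against VC, 0 for the interaction and 1 for VC averaged over DZNep (0 of the 6). With only the libraries compared they were 454 for DZNep against PBS, and for the combination 894 against PBS and 4 against DZNep (0 of the 6). Median-of-ratios scaling gave 1 for VC against PBS (TFRC) and 106 for the combination against DZNep; a robust prior gave 136 there, 0 for the interaction and 53 for VC averaged over DZNep. A mean of at least 50 gave 1 for the interaction and, like normal scores of ranks, 1 of the 6 for VC averaged over DZNep. Replicate numbers share only a number: deviations of equally numbered libraries correlated from -0.05 to 0.09. With the replicate block the counts were 1367, 0, 1944, 95, 1508, 3, 38 and 2751 in the 8 comparisons, against 1242, 0, 1875, 64, 1429, 2, 28 and 2668, and no call on the 6 genes changed.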
